A study of Mus musculus with 4 samples.

Results

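The genes described here encode the cytokine receptor chains that pair with the common gamma chain, the gamma chain itself and the kinases bound to these receptors. The list holds 9 genes: Il2ra, Il2rb, Il2rg, Il7r, Il9r, Il15ra, Il21r, Jak1 and Jak3. Il4ra, the chain for IL-4, is not on it and was read with other receptor chains. Each gene was read from the probe set annotated to that symbol alone with the highest mean on the 4 arrays. In this way 7 of the 9 genes obtained a value, among 19938 genes in all. Il2rg had no such probe set and is not analysed here. Jak3 was named only on a probe set that it shares with Insl3, so no value is given for it either. Each of the 7 measured genes had 1 single-gene probe set.

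RNA came from naive CD8 T cells of the spleen, isolated by flow cytometry from BALB/c mice, with 2 arrays from Klf13 knockout (KO) mice and 2 from wild-type (WT) mice. Klf13 is a zinc-finger transcription factor, and the series asks about its part in memory-like CD8 T cells. The sources used here state neither the deleted part of Klf13 nor the age of the mice, nor whether both samples of a genotype come from different mice, so their spread may be technical. Values are log2 probe-set values, on which 1 unit is a doubling, and a probe set's value reflects how well it binds as well as how much RNA there is. Values are therefore compared between arrays for 1 gene and never between genes.

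Receptors of this family bind IL-2, IL-4, IL-7, IL-9, IL-15 and IL-21. Binding joins a cytokine-specific chain to the common gamma chain, Jak1 on the specific chain and Jak3 on the gamma chain phosphorylate the receptor, and STAT factors, above all STAT5, carry the signal to the nucleus. In CD8 T cells, IL-7 sustains naive cells, and IL-15, read through Il2rb, sustains memory and memory-like cells. Il2ra, which makes the IL-2 receptor high in affinity, is scarce on resting naive T cells and is abundant on activated and regulatory T cells.

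Klf13 itself had values of 5.46 and 5.43 in the KO arrays, against 7.01 and 7.15 in the WT arrays, so the 2 genotypes stood apart at the targeted gene. Cd8a had values of 11.11 and 11.14 in KO and 11.25 and 11.12 in WT, and Cd8b1 had 10.88 and 10.92 in KO and 10.86 and 10.96 in WT. Neither CD8 chain passed the test (limma adjusted p = 0.777 and 0.966). The test was limma's moderated test over all 19938 genes with Benjamini-Hochberg adjustment, and a gene is called where the adjusted p is under 0.05. Over all genes 2.25% were called, 1.19% as higher and 1.05% as lower in KO. With each array centred on its median, 21.8% of the called genes were higher in KO, against 53.1% as reported.

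The upstream sequences of Il7r and Il2ra are shown because these members had the smallest p-values in the comparison and the deleted gene encodes a DNA-binding protein. They are the 250 bases before the transcription start in RefSeq's GRCm38.p6 annotation, 5′ to 3′ on the gene's own strand. Capitals mark CACCC (the box bound by KLF factors) and GGAAGT (an Ets-type core), on either strand, so CACCC can read GGGTG and GGAAGT can read ACTTCC. The windows lie at chr15:9529877-9530126 on the minus strand for Il7r and at chr2:11642542-11642791 on the plus strand for Il2ra.
Il7r: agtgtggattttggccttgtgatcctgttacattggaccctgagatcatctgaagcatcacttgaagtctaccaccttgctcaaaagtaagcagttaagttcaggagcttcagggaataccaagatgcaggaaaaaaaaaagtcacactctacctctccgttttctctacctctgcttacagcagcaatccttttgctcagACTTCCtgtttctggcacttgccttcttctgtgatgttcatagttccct
Il2ra: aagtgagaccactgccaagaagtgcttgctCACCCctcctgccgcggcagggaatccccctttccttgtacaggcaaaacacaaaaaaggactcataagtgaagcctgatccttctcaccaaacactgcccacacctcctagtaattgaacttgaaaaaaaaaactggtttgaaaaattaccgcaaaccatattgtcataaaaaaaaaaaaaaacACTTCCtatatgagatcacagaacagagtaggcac
The Il7r window held 1 match, the Ets-type core at position -49 from the start, and no CACCC. The Il2ra window held 1 CACCC at position -220 and 1 Ets-type core at position -35. The GC box GGGCGG, searched on both strands, was in neither. Of the 9 listed genes 8 had an entry, with 9 windows because Il15ra had 2, and Il2rb had none. CACCC was found in 7 of these 9 windows and in 52% of all 32851 RefSeq windows of that length. GGGCGG was found in 3 of the 9 and in 32.7% of all windows, and GGAAGT in 2 of the 9 and in 19.7%. No binding was measured in this study, and a match is only a run of letters.

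None of the 7 measured members passed the test. The adjusted p-values (limma) ran from 0.0935 for Il7r to 0.981 for Il2rb, and 2 members had an unadjusted p under 0.05, a mark that 16.6% of all genes reached. The KO arrays lay on one side of the WT arrays for 4 of the 7 members, 2 above and 2 below. This was so for 47.6% of all genes, 24.4% above and 23.2% below. The differences of group means, KO minus WT, spanned -0.35 for Il7r to 0.38 for Il2ra with a median of -0.01, and the median over all genes was 0.02. Standard errors of the members' differences were 0.09 to 0.12, near the median of 0.10 over all genes.

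**Figure D1:**
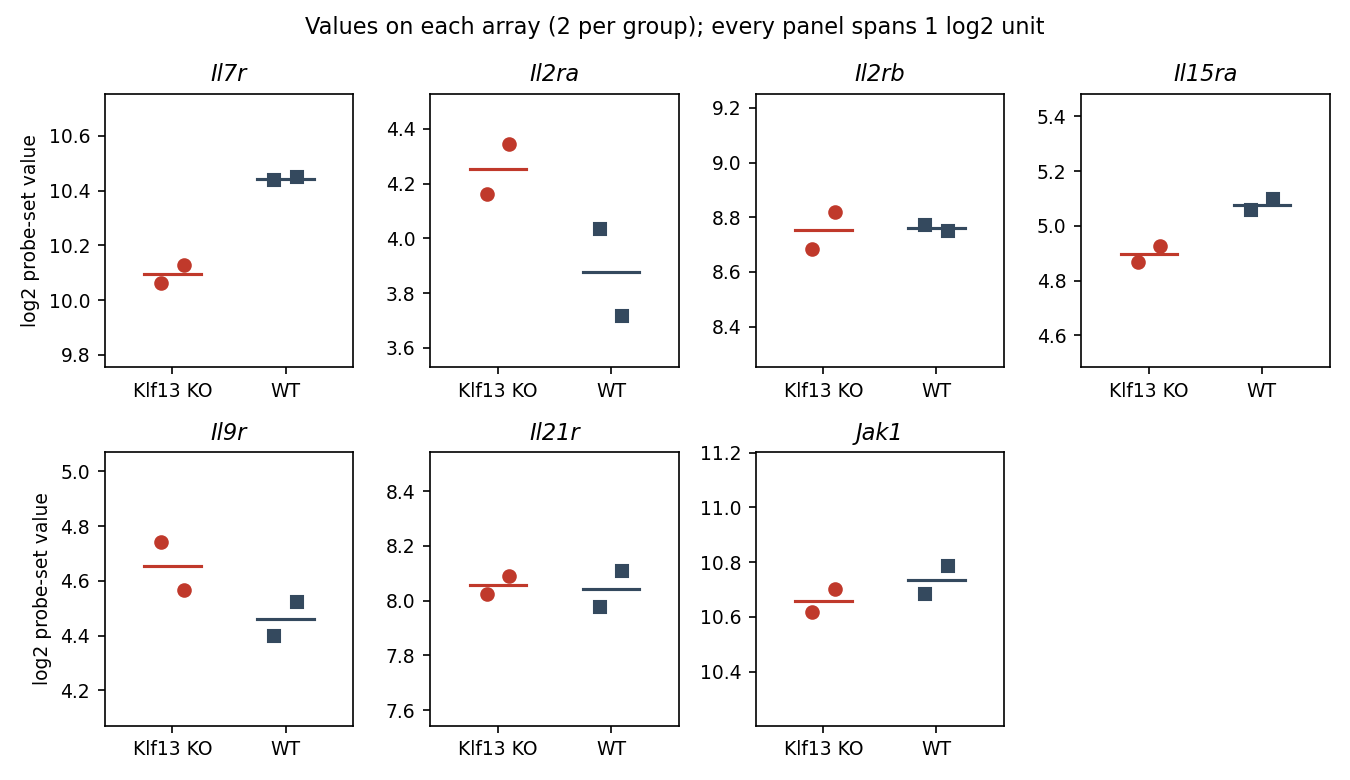
Log2 probe-set values of the 7 measured members on each array, Klf13 KO (red circles, 2 arrays) left of WT (dark squares, 2 arrays), with a line at each group mean. Every panel spans 1 log2 unit; the groups stand apart for Il7r, Il2ra, Il15ra and Il9r and overlap for Il2rb, Il21r and Jak1.

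Il7r encodes the alpha chain of the IL-7 receptor, on which naive T cells depend for survival. Its values were 10.06 and 10.13 in the KO arrays, against 10.44 and 10.45 in the WT arrays. Both KO arrays lay below both WT arrays, and the gap within a pair was 0.07 in KO and 0.01 in WT. The difference was -0.35 (SE 0.09), or 1.27-fold lower in KO, with a 95% interval of -0.55 to -0.15. It did not pass (limma adjusted p = 0.0935), and 5.53% of all genes differed by as much or more in either direction.

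The side of the threshold on which Il7r fell depended on the fit, while the sign was the same in all 12 alternatives tried (-0.44 to -0.28). Il7r passed when only genes above the median level were tested (limma adjusted p = 0.0479) and with each array centred on its median (0.0221). It also passed with a variance trend and robust moderation (limma adjusted p = 3.22e-04), but not after a further quantile normalization (0.113). With 1 array left out, Il7r differed by -0.32 (KO replicate 1), -0.38 (KO replicate 2), -0.35 (WT replicate 1) or -0.34 (WT replicate 2). Il7r belongs to the tenth of genes with the highest mean levels, where the median difference was -0.07 and 73.9% of genes were lower in KO. After a cyclic loess normalization, which removes differences that vary with level, Il7r differed by -0.29 (limma adjusted p = 0.108). The part of this level trend in the Il7r difference was not tested beyond that.

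Il2ra encodes CD25, the alpha chain of the IL-2 receptor. Its values were 4.16 and 4.34 in KO, against 4.04 and 3.72 in WT. Both KO arrays were above both WT arrays, but the WT pair lay 0.32 apart, nearly as far as the groups did. The difference was 0.38 (SE 0.12), or 1.30-fold, with a 95% interval of 0.11 to 0.65 and no call (limma adjusted p = 0.162). Leaving out WT replicate 1 gave 0.54 and leaving out WT replicate 2 gave 0.22, so this pair set much of the size. Il2ra lies in the tenth of genes with mean levels of 3.97 to 4.64, where the median difference was 0.09 and 23.9% of genes were lower in KO.

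Regulatory T cells carry CD25. Of 10 of their markers tested, 3 rose and 7 failed the test, beside 1.19% of all genes that rose. Their median difference was 0.20 and their mean log2 value was 5.32 and 5.44 in KO, against 5.15 and 5.0 in WT. The genes that rose were the integrin gene Itgae (1.01), which CD8 T cells carry too, the receptor gene Gpr83 (0.92) and the Ikaros-family gene Ikzf2 (0.59). Ctla4 (-0.33) and Tnfrsf4 (-0.20), named after their values had been seen, had differences of the other sign and did not pass. Foxp3, which defines these cells, had values of 4.44 and 4.55 in KO and 4.64 and 3.99 in WT, with overlap (difference 0.18, limma adjusted p = 0.650). The part of these cells in the Il2ra difference was not tested. In RNA from a whole sorted population, a change in the share of cells of a type and a change in RNA per cell cannot be told apart.

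Il2rb encodes CD122, the chain shared by the IL-2 and IL-15 receptors and a marker of memory-like CD8 T cells. Its values were 8.68 and 8.82 in KO, against 8.77 and 8.75 in WT. The WT arrays lay between the KO arrays. The difference was -0.01 (SE 0.10), with a 95% interval of -0.22 to 0.20, which spans 0.859-fold to 1.15-fold (limma adjusted p = 0.981). Its sign turned under 4 of the 12 alternatives, where it reached 0.07 at most, and under none did it pass.

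Il15ra encodes the alpha chain that binds IL-15 and presents it to neighbouring cells. Its values were 4.87 and 4.92 in KO, against 5.06 and 5.10 in WT, and the KO arrays were below the WT arrays with pair gaps of 0.06 and 0.04. The difference was -0.18 (SE 0.09), with a 95% interval of -0.38 to 0.02 (limma adjusted p = 0.365). It kept its sign in all 12 alternatives (-0.27 to -0.15) and passed in 0 of them. Dendritic cells and macrophages carry Il15ra as well. Of 12 of their markers 4 rose, 0 fell and 8 did not pass, beside 1.19% of all genes that rose. The differences ran from -0.34 for Cd68 (named after its value had been seen) to 1.15 for Lyz2. The part of these cells in the Il15ra values was not tested.

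Il9r, the IL-9 receptor chain, had values of 4.74 and 4.57 in KO, against 4.40 and 4.52 in WT. The KO arrays were above the WT arrays, and the lower KO array was only just above the higher WT array. The difference was 0.19 (SE 0.10), with a 95% interval of -0.03 to 0.42 (limma adjusted p = 0.386). Il9r shares the tenth of levels that holds Il2ra, with its median of 0.09. Mast cells respond to IL-9, and of 7 mast cell markers 0 passed, with a median difference of 0.04. Over all genes 2.25% were called. An unadjusted p under 0.05 was reached by 3 of the 7 and by 16.6% of all genes. These 3 had mixed signs: Ms4a2 (0.35), Cpa3 (-0.30) and Kit (0.40, named after its value had been seen).

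Il21r, the IL-21 receptor chain, lies on chromosome 7, as Klf13 does. Its values were 8.02 and 8.09 in KO, against 7.98 and 8.11 in WT, with the KO arrays inside the WT pair. The difference was 0.01 (SE 0.10), with a 95% interval of -0.20 to 0.23 (limma adjusted p = 0.960), and its sign turned under 3 of the 12 alternatives. Jak1, the kinase bound to the cytokine-specific chains, had values of 10.62 and 10.70 in KO, against 10.68 and 10.79 in WT. These groups overlapped too, and the difference was -0.08 (SE 0.10), with a 95% interval of -0.29 to 0.13 (limma adjusted p = 0.739).

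**Figure D2:**
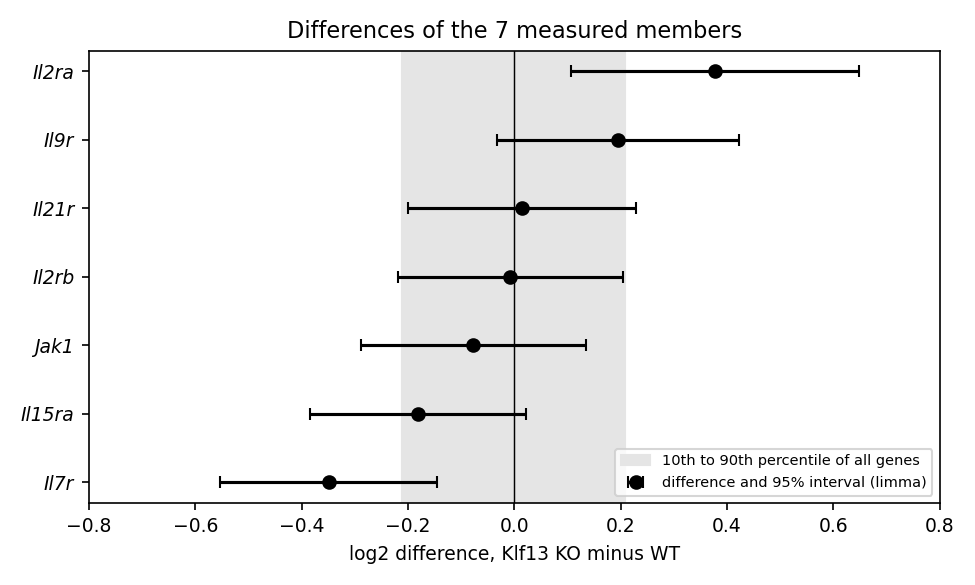
Difference of group means on the log2 scale, Klf13 KO minus WT, for the 7 measured members, with 95% intervals from limma. The grey band is the 10th to 90th percentile of the differences of all 19938 genes, -0.21 to 0.21; the intervals of Il7r (-0.55 to -0.15) and Il2ra (0.11 to 0.65) do not reach 0, before adjustment over all genes.

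The intervals set how large a difference these arrays leave room for in the fit as reported. They rest on the spread within each pair, which may be technical, and do not include the shifts between processing settings. For Il2rb, Il21r and Jak1 the 95% intervals lie within 0.819-fold and 1.17-fold of the WT level. For Il15ra the interval runs from 0.766-fold to 1.02-fold, for Il9r from 0.978-fold to 1.34-fold, for Il7r from 0.682-fold to 0.904-fold and for Il2ra from 1.08-fold to 1.57-fold. RMA values compress the folds of dim probe sets. The plot of Il7r and Il2ra by setting shows how both values moved with the processing.

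**Figure D3:**
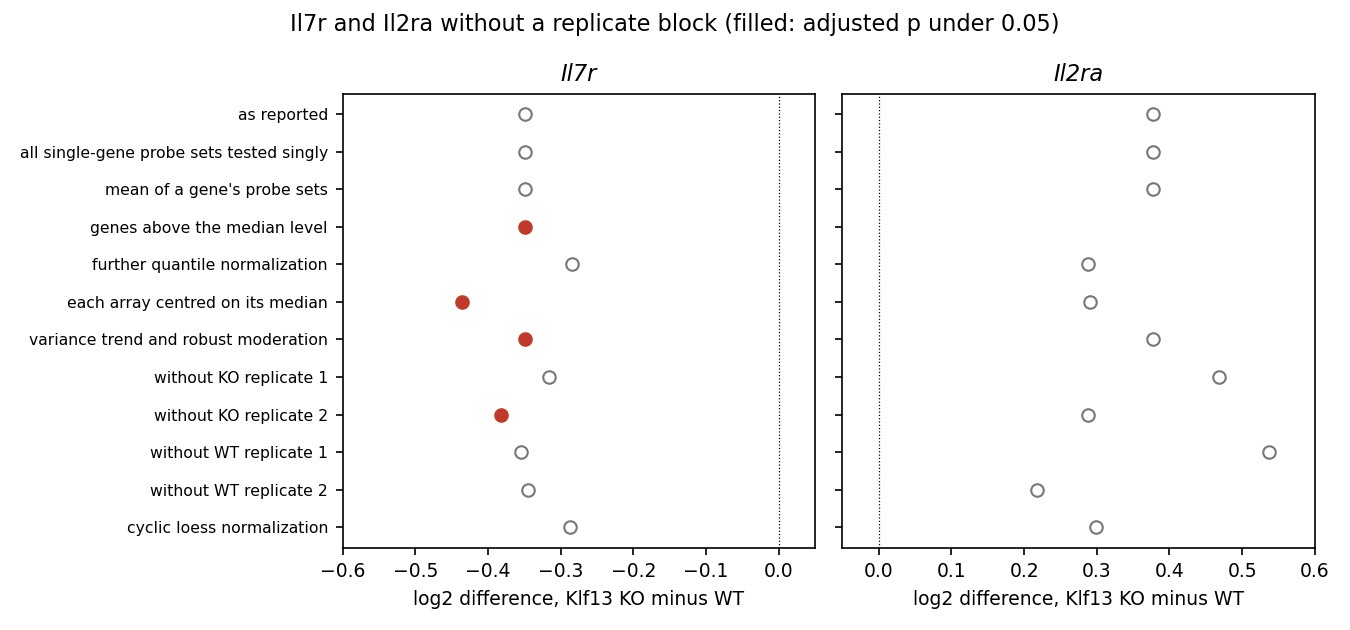
Log2 difference, Klf13 KO minus WT, of Il7r (left) and Il2ra (right) as reported and under 11 of 12 alternatives, with filled points where the limma adjusted p was under 0.05. Il7r lies between -0.44 and -0.28 and passes in 4 of these alternatives, the fit without KO replicate 2 among them. Il2ra lies between 0.22 and 0.54 in the 10 that hold it and passes in none of them. The replicate block, under which both passed with the same standard error of 0.115, is not drawn.

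Other genes of the pathway were read in 8 lists, of which 103 distinct genes had a value and 10 were called (9.71%, beside 2.25% of all genes), 5 higher and 5 lower in KO. The median difference over these genes was 0.01. The lists were chosen with earlier results of these data known, so the share called is no test of the pathway. Cytokines of the family, Il2, Il4, Il7, Il9, Il15 and Il21, came first. None of the 6 was called by limma, and their median was 0.12. An unadjusted p under 0.05 was reached by 0 of them and by 16.6% of all genes. The values of Il4 were 4.17 and 3.60 in KO, against 3.69 and 3.70 in WT, with the WT arrays between the KO arrays (difference 0.19). Il7 differed by 0.18 and Il2 by 0.13. Without KO replicate 1, Il4 differed by -0.09. Without KO replicate 2 it differed by 0.47 and passed (limma adjusted p = 0.0377).

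Of 18 measured receptor chains of the same structural class outside the 9 listed genes, 3 rose, 0 fell and 15 did not pass, with a median of 0.18. Over all genes 1.19% rose. Among the 15 was Il4ra, the IL-4 chain, which also pairs with the common gamma chain and was named after its value had been seen. Its values were 8.25 and 8.43 in KO, against 8.55 and 8.69 in WT (difference -0.27, limma adjusted p = 0.228). Csf2ra, the alpha chain for GM-CSF, had values of 6.25 and 6.29 in KO, against 5.68 and 5.85 in WT (difference 0.51, limma adjusted p = 0.0285). Il5ra, the IL-5 receptor chain of eosinophils and B-1 cells, had values of 3.36 and 3.36 in KO, against 2.72 and 2.97 in WT (0.52, limma adjusted p = 0.0359). Il5ra lies in the tenth of genes with mean levels of 3.09 to 3.50, where the median difference was 0.07. Il23r, the IL-23 receptor chain, had values of 5.27 and 5.45 in KO, against 4.87 and 4.91 in WT (0.47, limma adjusted p = 0.0430). In all 3 both KO arrays were above both WT arrays.

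These calls rest on few arrays, and the sizes moved with the array left out. Csf2ra differed by 0.43 (without WT replicate 1) to 0.59 (without WT replicate 2). Il5ra differed by 0.39 (without WT replicate 1) to 0.64 (without WT replicate 2). Il23r differed by 0.38 (without KO replicate 2) to 0.56 (without KO replicate 1). With all arrays kept, Il5ra was lost after a further quantile normalization (limma adjusted p = 0.0994) and after cyclic loess (0.0821). Il23r was lost after a further quantile normalization (limma adjusted p = 0.0544) and with each array centred on its median (0.0509). GM-CSF receptors are typical of myeloid cells and neutrophils, and IL-5 receptors of eosinophils, for which no marker list was read. Of 12 myeloid and dendritic cell markers 4 rose (list median 0.15). Of 12 neutrophil markers 4 rose (list median 0.27, lowest difference -0.12), beside 1.19% of all genes that rose. The part of such cells in the receptor values was not tested.

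Among 6 chains of the interferon and IL-10 receptors, 1 fell, 0 rose and 5 did not pass, with a median of -0.12, and 1.05% of all genes fell. Il10ra, the ligand-binding chain for IL-10, had values of 5.28 and 5.45 in KO, against 5.82 and 5.84 in WT, with the KO arrays below the WT arrays (difference -0.46, limma adjusted p = 0.0411). Both interferon-gamma receptor chains failed the test, Ifngr2 with 0.42 and Ifngr1 with -0.31 (limma adjusted p = 0.0733 and 0.126). The Il10ra difference was -0.380 without KO replicate 1 and -0.549 without KO replicate 2. It was -0.474 without WT replicate 1 and -0.455 without WT replicate 2.

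Of 8 measured JAK kinases and STAT factors other than the listed ones, Stat4, which relays IL-12, fell and 7 did not pass. Over all genes 1.05% fell. Stat4 had values of 9.22 and 9.17 in KO, against 9.63 and 9.58 in WT, a difference of -0.42 (limma adjusted p = 0.0493), close to the threshold. That call was lost in 6 of 12 alternatives, some with 1 array left out. With all arrays kept, it was lost after a further quantile normalization (limma adjusted p = 0.0994) and after cyclic loess (0.089). It was also lost with all single-gene probe sets tested singly (limma adjusted p = 0.0520). Stat4 belongs to the tenth of genes with the highest mean levels, where the median difference was -0.07 and 73.9% of genes were lower in KO. Stat2 and Stat6, the relays of type I interferon and of IL-4, differed by -0.26 and -0.14 and did not pass. The main relays of IL-2, IL-7 and IL-15 are Stat5a and Stat5b, singled out here after their values had been seen. Stat5a had values of 8.27 and 8.30 in KO, against 8.27 and 8.26 in WT, and Stat5b 7.57 and 7.69 in KO, against 7.70 and 7.52 in WT. Their differences were 0.02 and 0.02, with 95% intervals of -0.18 to 0.22 and -0.21 to 0.24.

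Of 20 inhibitors of this signalling, 1 rose, 0 fell and 19 did not pass, with a median of -0.03, and 1.19% of all genes rose. The member that rose was Cish, a STAT5 target whose product damps cytokine receptor signalling. Its values were 5.51 and 5.51 in KO, against 4.96 and 5.04 in WT, so the groups lay much further apart than either pair (difference 0.51, SE 0.09, limma adjusted p = 0.0218). With 1 array left out, Cish differed by 0.46 (without WT replicate 1) to 0.55 (without WT replicate 2). Pias3, an inhibitor of STAT3, differed by 0.39 and the phosphatase gene Ptpn2 by -0.22, and neither passed. Of 14 measured adaptors and PI3K genes at the receptor, limma called 0, with 2 at an unadjusted p under 0.05. Among all genes 16.6% had such a p. The kinase gene Syk (0.31) and the exchange factor gene Sos1 (0.28) had the smallest p, and Fyn differed by -0.20.

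Among 19 genes that respond to STAT5 or to these cytokines, 3 fell, 0 rose and 16 did not pass, with a median of -0.07, and 1.05% of all genes fell. The T-box factor Eomes, which drives Il2rb expression in mouse memory CD8 T cells, had values of 6.66 and 6.67 in KO, against 8.12 and 8.11 in WT. The granzyme gene Gzmb had values of 5.48 and 5.60 in KO, against 6.56 and 6.44 in WT. The perforin gene Prf1 had values of 7.01 and 7.33 in KO, against 8.13 and 8.0 in WT. The KO arrays were well below the WT arrays for all 3, which passed in all 12 alternatives. Eomes and Il2rb thus differed in these arrays by -1.45 and -0.01. The other responders included survival genes singled out after their values had been seen, Bcl2 (0.15) and Mcl1 (0.05), which did not pass.

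The last list held transcription factors known to bind or regulate Il7r. The 12 with a value had a median of -0.02, and 1 of them rose, 0 fell and 11 failed the test, beside 1.19% of all genes that rose. The member that rose was Gfi1, a zinc-finger repressor that lowers Il7r expression in mouse CD8 T cells. Its values were 6.35 and 6.46 in KO, against 5.96 and 5.81 in WT, with the KO arrays above the WT arrays (difference 0.51, SE 0.10, limma adjusted p = 0.0286). With 1 array left out, Gfi1 differed by 0.44 (without WT replicate 2) to 0.59 (without WT replicate 1). Its paralogue Gfi1b differed by -0.22 and Lef1, a factor of naive T cells, by 0.10, and neither passed. Foxo1, an activator of Il7r, and the Ets-family gene Ets1, both named after their values had been seen, differed by 0.04 and -0.03.

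**Figure D4:**
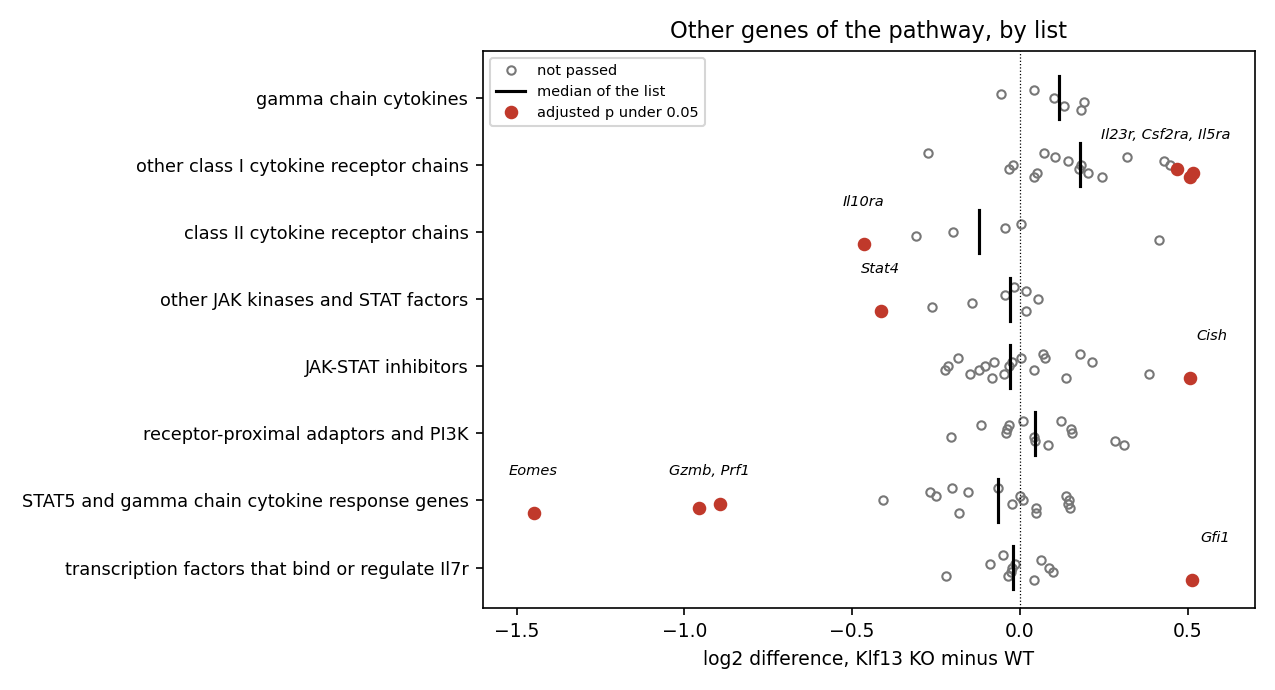
Log2 difference, Klf13 KO minus WT, of each measured gene in 8 pathway lists (rows), with filled points for limma adjusted p under 0.05 and a bar at each list's median. The 10 called genes are labelled; the list medians lie between -0.12 and 0.18.

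Some genes listed as markers of other cell types also differed between the genotypes. Whether such cells were in the sort, and their part in these results, was not tested. Over all genes 1.19% rose, 1.05% fell and 16.6% had an unadjusted p under 0.05. Mean log2 values over the 12 neutrophil markers were 4.73 and 4.72 in KO, against 3.98 and 4.08 in WT. Of these, Mpo, Elane, Ctsg and Prtn3 rose and the other 8 did not pass (list median 0.27, lowest difference -0.12). For the 12 myeloid and dendritic cell markers the mean log2 values were 4.39 and 4.53 in KO, against 4.16 and 4.10 in WT. Here Lyz2, Flt3, Csf1r and Mpeg1 rose and 8 did not pass (median 0.15, lowest difference -0.34 for Cd68). Of 8 NK cell markers Cd244a and Tyrobp rose, with mean values of 3.72 and 3.88 in KO and 3.58 and 3.50 in WT. Ncr1 did not pass (0.41). Of the 8, 6 were higher and 2 lower in KO, the lowest being Gzma (-0.22, named after its value had been seen). Of 9 measured B cell markers limma called 0, with 4 at an unadjusted p under 0.05 and mean values of 4.68 and 4.73 in KO, against 4.53 and 4.54 in WT. Among 6 markers of CD4 T cells, 4 were lower and 2 higher in KO. Cxcr5 and Tnfsf8 fell, while Zbtb7b (0.39) and Cd40lg (0.17) had the other sign and did not pass. Cd4 itself had overlapping values of 4.07 and 3.47 in KO and 3.80 and 3.88 in WT. Of 11 CD8 T cell markers limma called 0, with 1 at an unadjusted p under 0.05 and mean values of 9.52 and 9.57 in KO, against 9.61 and 9.62 in WT. The arrays carry no detection calls here, so no marker can be said to be absent.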

How the data were processed

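From each of the 4 samples 200 ng of RNA was labelled with biotin for a 1-colour Affymetrix array, per the labels. The deposited table holds log2 probe-set values for 35556 probe sets, from 1.34 to 13.5; the submitters' processing notes name RMA and Partek without versions or settings. RMA adjusts the background and makes the arrays' distributions alike, so a shift of most genes in one direction would be removed. GEO's platform annotation pairs 21789 probe sets with 1 symbol, and symbols were updated through RefSeq gene identifiers, which matched 21698. No level filter was applied. Groups were compared with limma 3.58.1 in R 4.3.3 (two-sided, with genotype alone in the model, Benjamini-Hochberg over 19938 genes and prior degrees of freedom of 8.06), first tested on simulated data. The number of arrays, 2 a group, limits the precision. The members and lists were chosen with earlier results of these data known. Named are the 9 members, Klf13, the called genes and 3 smallest p-values of each pathway list, and the called and first 3 genes of each marker list, as far as they are shown. Alternatives changed the probe sets per gene, the level filter, the normalization, the variance model, the replicate block and the arrays used; of 109 pathway genes, 6 had no single-gene probe set here and are not analysed.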

Additional observations from a re-analysis of the deposited data

How the results depend on the processing

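Il7r and Il15ra kept a negative sign, and Il2ra and Il9r a positive one, in every alternative that held them, and Jak1 kept a negative sign. Jak1 lies in the tenth of genes with the highest mean levels, where the median difference was -0.07 and 73.9% were lower in KO. It differed by -0.015 after a further quantile normalization and by -0.022 after cyclic loess. The count of called genes was 448 as reported, 1088 with each array centred on its median, 831 with a variance trend and robust moderation, 1187 with the replicate block, and 264 to 1536 with 1 array left out. The count of called members was 0 as reported and 1 among genes above the median level, with centred arrays and with the variance trend, each time Il7r; it was 0 to 1 with 1 array left out. With the replicate block it was 2, Il7r (limma adjusted p = 0.0425) and Il2ra (0.0230). Under the block each measured member and called pathway gene had the same standard error, 0.115. Passing there therefore says little about a gene's own spread. The labels do not say what a replicate number shares. Same-numbered arrays did not deviate together across genes (r = 0.0074). With 2 arrays a group the crossed numbers give the negative of this value (-0.0074), so it cannot tell whether the numbers pair the samples. The count of called pathway genes was 10, and 4 to 13 with 1 array left out. The members' median difference of -0.01 moved to 0.069 after a further quantile normalization, to -0.093 with centred arrays and to 0.074 after cyclic loess, which was chosen after seeing the data; with 1 array left out it ran from -0.074 to 0.047. The sign of Il2rb turned after quantile normalization (0.069), after cyclic loess (0.074), without KO replicate 1 and without WT replicate 1, with a range of -0.074 to 0.060 when 1 array was left out. That of Il21r turned with centred arrays (-0.072), without KO replicate 2 and without WT replicate 1 (range -0.052 to 0.081), and that of Il4 turned without KO replicate 1 (range -0.093 to 0.47), where it passed without KO replicate 2. The cause of these shifts was not tested. Where 1 array was left out, the lone array of its group was assumed to vary like the other group. Without WT replicate 1 or WT replicate 2, each measured member and called pathway gene had the same standard error, 0.166. Whether a gene passed in such a fit therefore says little about the array left out. With 2 arrays a group, an exact permutation test could not go below p = 0.333.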
